A study of Mus musculus with 8 samples.

Results

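The genes examined here are those of the m6A writer complex and the m6A erasers, 10 genes in all: the writer genes Mettl3, Mettl14, Wtap, Virma, Zc3h13, Rbm15, Rbm15b and Cbll1, and the eraser genes Fto and Alkbh5. The assay was iCLIP of RBM45, which binds RNA through RNA recognition motifs: the protein is crosslinked to RNA and pulled down, and the attached RNA is sequenced. A peak was given to a gene when its midpoint lay in the body of that gene on the same strand (mm10, GENCODE M21). By that rule the 10 genes held 452 of 387749 distinct peaks in WT CLIP replicate 1, 353 of 344700 in WT CLIP replicate 2, and 23 of the 16399 peaks in the deposited list of overlaps between these replicates. They are 10 of 20188 genes with a peak in either replicate.

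The series holds 8 libraries in 4 groups of 2: Mettl3 KO CLIP, Mettl3 KO input, WT CLIP and WT input. All come from mHiPPoE-2, a line of transformed hippocampal neurons of the mouse (strain Crl:CFW(SW)-024), and all cells carried a lentivirus for mouse RBM45 with FLAG and HA tags, so the protein profiled was the introduced, tagged one. CLIP libraries were made with an antibody against the HA tag and inputs with no antibody. UV crosslinking, at 150 mJ per cm2 given 2 times, is stated for the Mettl3 KO samples only. The peak lists used here are those of the WT CLIP libraries, and no comparison between genotypes or with input was made. The labels do not say whether the replicates came from separate cultures.

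m6A, a methyl group on adenosine, is the most abundant internal modification of mRNA and is placed on nascent transcripts in the nucleus. METTL3 and METTL14 form the catalytic core, WTAP holds the core to VIRMA, ZC3H13, CBLL1 and the RNA-binding proteins RBM15 and RBM15B, and FTO and ALKBH5 remove the mark. The letters GAC are the core of many m6A sites, and RBM45 has been described as binding RNA with GAC repeats in vitro.

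The strongest WT CLIP peak of the 10 genes lay in Rbm15, whose product recruits the writer complex to RNA. Its centre is shown first, since both replicates called a peak over it, followed by the windows of the other Rbm15 peaks that a transcript covers, in the same intron and in the coding sequence. Each line gives 30 bases, 5′ to 3′ on the strand of the gene, as DNA letters from GENCODE M21 transcripts (mm10 coordinates), with GAC in capitals.
Rbm15 intron, centre of the shared peaks, chr3:107327397-107327426, minus strand: gtaacctttttgtGACtGACtGACtcactt
Rbm15 intron, replicate 1 peak 5′ of the shared peaks, chr3:107327465-107327494, minus strand: tttcagaattaacctattaaattgtacatc
Rbm15 intron, replicate 2 peak 5′ of the shared peaks, chr3:107327507-107327536, minus strand: ttaatgtgtacttgtacaccatcaaactaa
Rbm15 intron, replicate 1 peak 3′ of the shared peaks, chr3:107327229-107327258, minus strand: attgcccattttgcaggcacagcttgaact
Rbm15 coding sequence, replicate 1 peak, chr3:107331400-107331429, minus strand: cttttgGACatagagcacctGACcctttga
The shared centre holds 3 GAC, each followed by T, and next to them a run of 5 T. The coding window holds 2 GAC and the neighbouring intronic windows hold none.

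Across the 10 genes, 9 had a peak in both replicates and 5 had at least 1 peak in the overlap list: Mettl14, Virma, Zc3h13, Rbm15 and Fto. Over all genes, 15995 of the 20188 with a peak in either replicate had one in both. Of those 15995 genes, 38.7% had an overlap-list peak. Long genes reach it more often. The share was 67.8% in the length decile of Fto, 47.3% in that of Virma and Zc3h13, 30.4% in that of Mettl14 and 22.0% in that of Rbm15. Among the 5 genes without an overlap-list peak, Mettl3 and Cbll1 lie in a decile where 27.0% of genes had one, and Wtap and Alkbh5 in one where 34.3% did.

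Peak density was 0.479 peaks per kb of gene as the median of the 10 genes (mean of the replicates), against 0.389 over all genes with a peak. The replicates did not place the 10 genes on the same side of the rest. In replicate 1 their median was 0.755 peaks per kb, against 0.354 for all genes, and in replicate 2 it was 0.267, against 0.296.

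**Figure D1:**
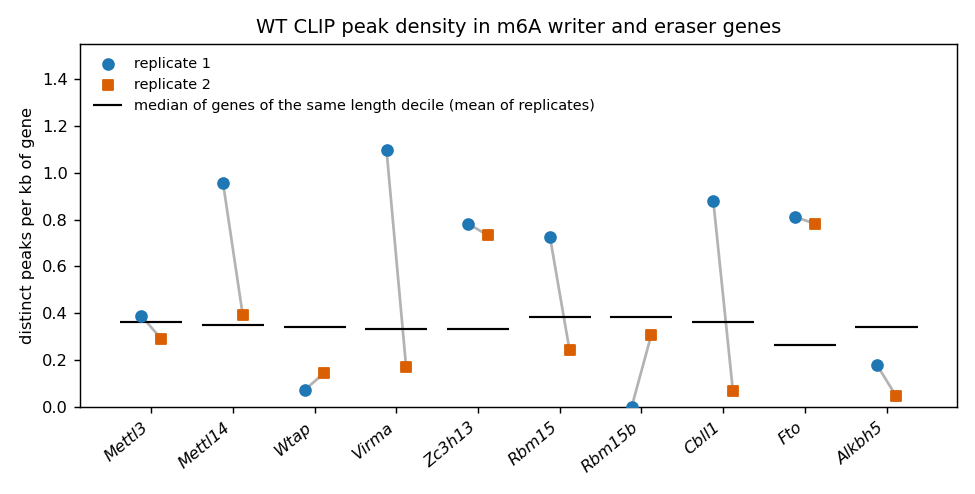
Distinct WT CLIP peaks per kb of gene (y axis) in each of the 10 genes (x axis), with circles for replicate 1, squares for replicate 2, a grey line joining the replicates of a gene, and a black bar for the median of genes of the same length decile. Each bar is the median for the mean of the replicates, so it is no median of either replicate alone. Over all genes that median was 0.389, against 0.354 in replicate 1 and 0.296 in replicate 2. Mettl14, Zc3h13 and Fto lie above their bars in both replicates, Wtap, Rbm15b and Alkbh5 below them in both, and the other 4 genes above in replicate 1 and below in replicate 2.

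Mettl3, the catalytic subunit (chr14:52294841-52305128, minus strand), had 4 peaks (replicate 1) and 3 peaks (replicate 2), with 0 on the overlap list. That is 0.389 and 0.292 peaks per kb, close to the median of 0.362 for its length decile. No replicate 2 peak touched a replicate 1 peak, and the nearest pair of midpoints was 720 nt apart. The fold that the authors' peak caller gives to each peak, of read pileup over background, reached 2.82 in replicate 1, in the coding part of exon 5. In replicate 2 it reached 3.51, in intron 9. Replicate 1 put 2 of its 4 peaks in coding exons and 2 in introns, while all 3 of replicate 2 were intronic. On the other strand Tox4 overlaps Mettl3, Gm11831 overlaps Virma and Gm29542 overlaps Cbll1.

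Mettl14, the RNA-binding partner of METTL3 (chr3:123368297-123386108, minus strand), had 17 peaks in replicate 1 and 7 in replicate 2, which is 0.954 and 0.393 per kb. Its single overlap-list peak lay in intron 1, 70 nt from the 5′ splice site, at chr3:123385677-123385706. The fold there was 1.92 in replicate 1 and 2.82 in replicate 2. Elsewhere the highest folds were 2.83 in replicate 1 and 3.18 in replicate 2, both in intron 6 and without overlap. Of the replicate 1 peaks, 5 fell in annotated 3′ UTR, and 4 of those lay in introns of the principal transcript that Mettl14-202 or Mettl14-204, other coding transcripts of the gene, keep in their 3′ UTR. A coding window of replicate 2 with a fold of 1.82 is printed for its 2 GAC.
Mettl14 coding sequence, chr3:123371387-123371416, minus strand: gttGACattGACttaattatcacagaagaa

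Wtap, the adaptor that places the core in nuclear speckles (chr17:12966796-12994169, minus strand), was sparse, with 2 peaks in replicate 1 and 4 in replicate 2. These are 0.0731 and 0.146 peaks per kb, both below its decile median of 0.342, and 29.7% of the genes of that decile had a lower density. All 6 peaks were intronic. In each replicate the strongest peak lay in intron 5, with folds of 3.60 in replicate 1 (chr17:12975956-12975985) and 3.18 in replicate 2 (chr17:12975870-12975902). Their midpoints were 85 nt apart and the peaks did not overlap, so the gene is absent from the overlap list.

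Virma, the large scaffold of the complex (chr4:11485958-11550684, plus strand), had most of its peaks in replicate 1, 71 there and 11 in replicate 2, or 1.10 and 0.170 per kb around a decile median of 0.333. The ratio of 6.45 was reached by 130 of the 7583 genes with at least 20 peaks over both replicates, or 1.71%. In those genes the median ratio of replicate 1 to replicate 2 was 1.08, with 0.5 and 4.2 at the 5th and 95th percentiles. The replicate 1 peaks had a median fold of 1.88, and 59 of 71 had the least width in the lists, 30 bp, as did 84.0% of all replicate 1 peaks. The median fold of the 11 replicate 2 peaks was 2.68, and the strongest reached 4.51 in intron 4. The overlap-list peak stood in the same intron, at chr4:11501847-11501876, with folds of 1.90 in replicate 1 and 3.18 in replicate 2. In both replicates coding exons held peaks, 10 of 71 and 3 of 11. The strongest coding peak of replicate 1, in exon 8, had a fold of 3.51 and 1 GAC in its window.
Virma coding sequence, chr4:11513347-11513376, plus strand: ggtGACggctctagaagaaattccaagtct

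Zc3h13, which anchors the complex in the nucleus (chr14:75284373-75344426, plus strand), had nearly equal numbers, 47 peaks in replicate 1 and 44 in replicate 2. Its densities of 0.783 and 0.733 per kb exceeded those of 84.7% of the genes of its length decile. The overlap list held 3 peaks, all in introns, with replicate 1 and replicate 2 folds of 1.92 and 1.84 in intron 4, 1.92 and 1.86 in intron 7, and 1.95 and 2.87 in intron 18. Exons held 15 of the 47 peaks of replicate 1, 12 of them coding, and 6 of the 44 of replicate 2, 4 of them coding. The highest fold was 2.93 in replicate 1, in the 3′ UTR, and 3.97 in replicate 2, in the coding part of exon 14. The window of that coding peak has no GAC.
Zc3h13 coding sequence, chr14:75330160-75330189, plus strand: atggaaagaagaggatcgtaaatcagaaag

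The strand of the Zc3h13 peaks is not settled by the lists. All 47 and all 44 intervals also stand on the minus strand, as do the 3 of the overlap list, and GENCODE M21 has no gene there. None of the other 9 genes had such a copy. Over the whole lists, 5181 and 4904 intervals stand on both strands, and 30.1% and 33.3% of those have an annotated gene on 1 strand only. Counted on either strand, the numbers for Zc3h13 are the same.

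Rbm15 (chr3:107325421-107333673, minus strand) had 6 peaks in replicate 1 and 2 in replicate 2, or 0.727 and 0.242 per kb around a decile median of 0.384. The shared peak spanned chr3:107327379-107327437 in replicate 1, with a fold of 15.4 and a −log10 p of 43.5. In replicate 2 it spanned chr3:107327385-107327463, with a fold of 13.0 and a −log10 p of 29.5, and 53 bp were common to both. By fold it ranked 217 of 387749 in replicate 1 and 191 of 344700 in replicate 2, so 0.0560% and 0.0554% of peaks were at least as high. In the overlap list it ranked 116 of 16399 by the lower −log10 p of the replicates, and 99 of the 14539 that lay in introns.

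That Rbm15 site is in the only intron of the principal transcript, Rbm15-201, which is 3.91 kb long. The replicate 2 midpoint was 2791 nt from the 5′ splice site and 1120 nt from the 3′ splice site. The intron is not removed in the annotated transcript Rbm15-202, a retained-intron transcript, which covers the site, and whether the bound RNA was spliced, retained or nascent was not tested. The 85 nt from the first to the last base of both peaks hold the 3 GAC printed above, a single TTTTT, 41.2% U and 35.3% G or C.

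The other Rbm15 peaks were weaker. Replicate 1 had folds of 4.73, 3.13, 2.39 and 3.30 at other places of the same intron and 4.36 in the coding part of exon 1. The second peak of replicate 2 had a fold of 4.30 and also lay in the intron. Thus 5 of 6 and 2 of 2 peaks were in the intron, at 1.28 and 0.512 peaks per kb, against 0.230 and 0 per kb of exon.

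**Figure D2:**
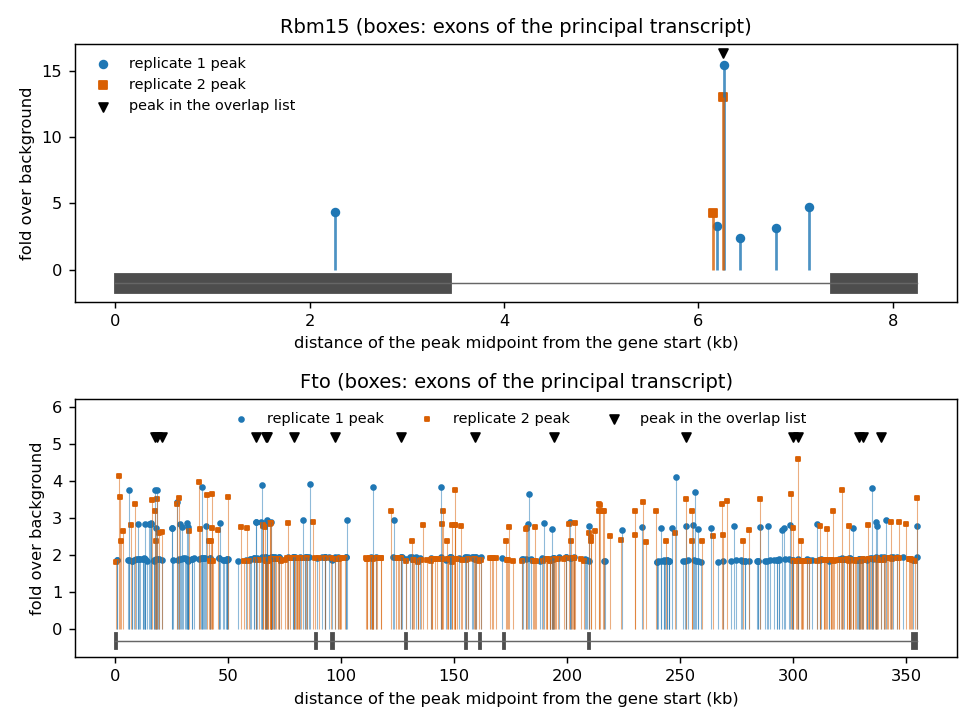
Fold over background (y axis) of every WT CLIP peak of Rbm15 (top) and Fto (bottom) against the distance of its midpoint from the gene start in kb, with circles for replicate 1, squares for replicate 2, triangles at a fixed height for overlap-list peaks and grey boxes for exons of the principal transcript. Rbm15 has a pair of coinciding peaks of 15.4 and 13.0 in its intron, while no Fto peak exceeds 4.58 and its overlap-list peaks are spread over the gene.

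Rbm15b, the paralogue of Rbm15 (chr9:106880918-106887428, minus strand), had 0 peaks in replicate 1 and 2 in replicate 2, which is 0.307 per kb, below its decile median of 0.384. Both were in the coding sequence, with folds of 2.45 and 2.45, and both also lie within Manf, a gene on the same strand, so they cannot be assigned to either gene. The exons of its annotated transcripts together cover all of its 6.51 kb, so no peak could be classed as intronic.

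Cbll1, the ubiquitin ligase HAKAI of the complex (chr12:31484829-31499616, minus strand), had 13 peaks in replicate 1 and 1 in replicate 2, or 0.879 and 0.0676 per kb around a decile median of 0.362. All 13 had the least width of 30 bp, as did 84.0% of all replicate 1 peaks, and their folds had a median of 1.85 and a highest value of 2.77. The replicate 2 peak, in intron 1 with a fold of 3.48, was 999 nt from the nearest replicate 1 peak. Exons held 6 of the 13 peaks, 3 of them coding and 3 in the 3′ UTR.

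Fto (chr8:91313525-91668439, plus strand), which removes m6A and the related cap mark m6Am, is the longest of the 10 genes at 354.9 kb. Replicate 1 placed 288 peaks in it and replicate 2 placed 278, with 17 in the overlap list, or 63.7% and 78.8% of the peaks of the 10 genes in the replicates. The densities of 0.811 and 0.783 per kb stood above the decile median of 0.265, and 90.2% of the 2019 genes in that decile had a lower density. At least 17 overlap-list peaks were found in 3.51% of the 1993 genes of the decile with peaks in both replicates. Per length this was 4.79 overlap-list peaks per 100 kb, against a decile median of 0.696.

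The genes nearest to Fto in length differed widely in peak number. Fbxl7 had 271 and 327 peaks in replicates 1 and 2 and 9 in the overlap list, Plcb4 had 178, 272 and 14, and Arid1b had 340, 300 and 12. The long non-coding genes D130009I18Rik, with 16, 8 and 0, and Gm26904, with 41, 42 and 3, were far lower. Fto thus had the most overlap-list peaks of the 6 and densities within the range of the coding genes of its length. Expression was not measured in the lists, and its part in these numbers was not tested.

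Fto peaks were mostly weak and intronic, as were those of all genes. Introns held 279 of 288 peaks in replicate 1 and 267 of 278 in replicate 2, the 3′ UTR 8 and 11, and the coding sequence 1 and 0. Over all genes introns held 90.3% and 91.1%. The exons of Fto cover only 12371 of its 354915 bp. Median folds were 1.91 and 1.91, against 1.93 and 1.92 over all peaks. The highest folds were 4.10 (chr8:91561578-91561633) and 4.58 (chr8:91615423-91615472), both in intron 8. A −log10 p of at least 6 was reached by 9 and 3 of the Fto peaks, and by 3.41% and 2.33% of all peaks. Other genes of the same strand overlap Fto, and 5 and 7 of its peaks also lie in one of those. In each replicate most of the 3′ UTR peaks of Fto lie in introns of its principal transcript. They fall in the 3′ UTR of Fto-202, Fto-203 or Fto-204, other coding transcripts of the gene.

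Within Fto, peaks were found in each of the 8 introns of the principal transcript in both replicates. The counts per intron include peaks classed above as 3′ UTR through other transcripts. Intron 1 (88.2 kb) held 113 peaks in replicate 1 and 69 in replicate 2, or 1.28 and 0.782 per kb, with 7 overlap-list peaks. Intron 8 (143.4 kb) held 103 and 101, or 0.718 and 0.704 per kb, with 6. Introns 3, 5 and 7 held the remaining 4, at 2, 1 and 1.

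By the lower −log10 p of the replicates, the first overlap-list peak of Fto was chr8:91331845-91331888 in intron 1, with folds of 3.75 in replicate 1 and 3.52 in replicate 2. The next were chr8:91565871-91565900 in intron 8, with 2.77 and 3.51, and chr8:91330955-91330984 in intron 1, with 3.74 and 3.18. Intron 1 also held chr8:91392828-91392857, with 1.95 and 1.92, and intron 3 held chr8:91440016-91440045, with 1.94 and 1.90. The lower fold thus falls to about the median of all peaks by the fourth. The peak with the highest fold in replicate 2, at 4.58, was in the overlap list with a replicate 1 fold of only 1.87.

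Alkbh5, the other m6A demethylase (chr11:60536381-60558512, plus strand), had 4 peaks in replicate 1 and 1 in replicate 2, or 0.181 and 0.0452 per kb. Both lie below the decile median of 0.342, and 30.5% of genes of that length had a lower density. The strongest peak was in the 3′ UTR in each replicate, with folds of 2.43 (chr11:60557950-60557979) and 3.37 (chr11:60554466-60554563), and these were 3450 nt apart. The erasers thus stood at opposite ends of the list, Fto with the most peaks and Alkbh5 among the fewest.

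**Figure D3:**
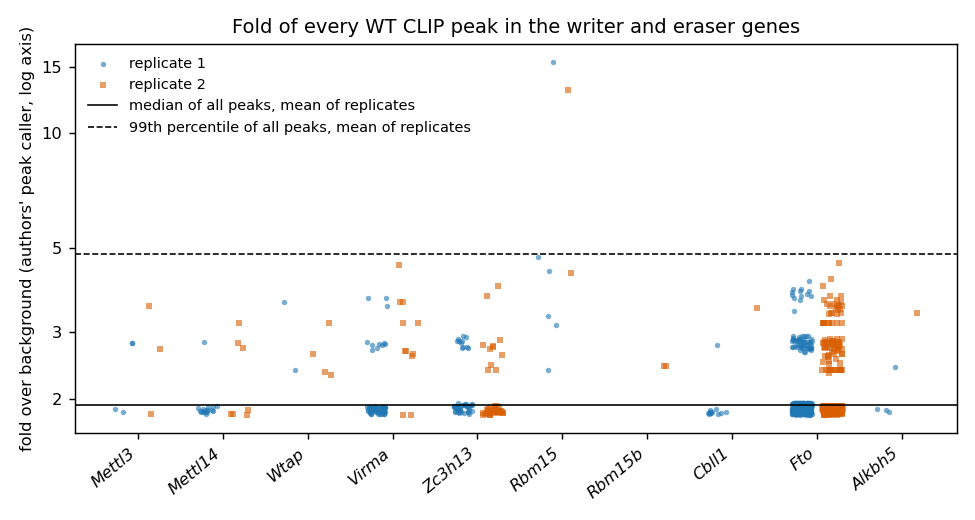
Fold over background (y axis, log axis) of every WT CLIP peak in the 10 genes, with circles for replicate 1 and squares for replicate 2. The solid line is the median of all peaks and the dashed line their 99th percentile, each as the mean of the replicates. Only the 2 Rbm15 peaks of 15.4 and 13.0 lie above the dashed line.

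Fold was low in general. The median fold of peaks in the 10 genes was 1.90 in replicate 1 and 1.91 in replicate 2, against 1.93 and 1.92 over all peaks, whose 99th percentiles were 4.88 and 4.76. A fold under 2 was found for 78.5% and 62.9% of the peaks of the 10 genes, against 76.7% and 69.6% of all peaks. Most peaks behind the counts and densities given here are thus weak calls. A fold of at least 5 was reached by 1 peak of the 10 genes in each replicate, both in Rbm15, and by 0.951% and 0.749% of all peaks. A −log10 p of at least 6 was reached by 11 and 6 peaks of the 10 genes, in Fto, Rbm15 and Virma, and by 3.41% and 2.33% of all peaks. Without Rbm15, the highest folds of the 10 genes were 4.10 and 4.58.

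Of the 353 replicate 2 peaks in the 10 genes, 23 or 6.52% (Wilson 95% interval 4.38% to 9.59%) were overlapped by a replicate 1 peak over at least 50% of their width, a rule that recovers all 16399 pairs of the deposited list. Over all genes the share was 4.76%, which is inside that interval. Without Fto it was 6 of 75, or 8% (3.72% to 16.4%). These intervals cover counting error only and treat peaks as independent, though 278 of the 353 lie in Fto. The depth of the libraries is unknown. Of the 23 overlap-list peaks, 22 had a fold under 5 in both replicates and 11 under 2 in both, the exception at the upper end being Rbm15. Over the whole list 37.4% had a fold under 2 in both. The median of the lower fold was 1.88 in the 10 genes, against 1.92 over the list.

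By annotation, 88.5% of replicate 1 peaks and 92.6% of replicate 2 peaks in the 10 genes were intronic, against 90.3% and 91.1% over all genes. In the overlap list all 23 were intronic (85.7% to 100%), against 88.7% over all genes, which is inside that interval. With the comprehensive annotation the Rbm15 peak among them is classed as non-coding exon, through Rbm15-202. The replicate shares rest on the long introns of Fto. Without Fto the intronic share was 73.8% (66.6% to 79.9%) and 80.0% (69.6% to 87.5%), and the coding sequence held 17.7% (12.6% to 24.2%) and 14.7% (8.39% to 24.4%), against 4.35% and 4.27% over all genes. Exons make up a larger part of the length of these 9 genes than of Fto. The coding shares are not corrected for coding length, in these 9 genes or in all genes. They therefore show no excess of peaks per kb of coding sequence. Per kb, the 10 genes together had 0.760 intronic peaks per kb of intron and 0.859 exonic peaks per kb of exon in replicate 1, and 0.621 and 0.429 in replicate 2. Over all genes these were 0.350 and 0.542 in replicate 1 and 0.315 and 0.448 in replicate 2. The pooled values mix Fto, which holds most of the intron length, with sparse genes, and their order did not hold within each gene. In replicate 2 exons were the denser part in Fto (0.889 exonic peaks per kb of exon and 0.779 intronic peaks per kb of intron), Zc3h13 (0.975 and 0.705), Virma (0.420 and 0.139), Mettl14 (0.407 and 0.383) and Alkbh5 (0.175 and 0). They were sparser in Mettl3 (0 and 0.363), Wtap (0 and 0.178), Rbm15 (0 and 0.512) and Cbll1 (0 and 0.0928). Most Fto peaks counted here as exonic lie in introns of its principal transcript, within the 3′ UTR of Fto-202, Fto-203 or Fto-204. In replicate 1 exons were denser in Zc3h13 (2.44 and 0.594), Virma (1.54 and 1.04) and Cbll1 (1.497 and 0.649). Mettl3 (0.988 and 0.242) and Alkbh5 (0.349 and 0.122) also had the denser exons there. Exons were sparser in Fto (0.728 and 0.814), Mettl14 (0.814 and 1.05), Rbm15 (0.230 and 1.28) and Wtap (0 and 0.0890).

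**Figure D4:**
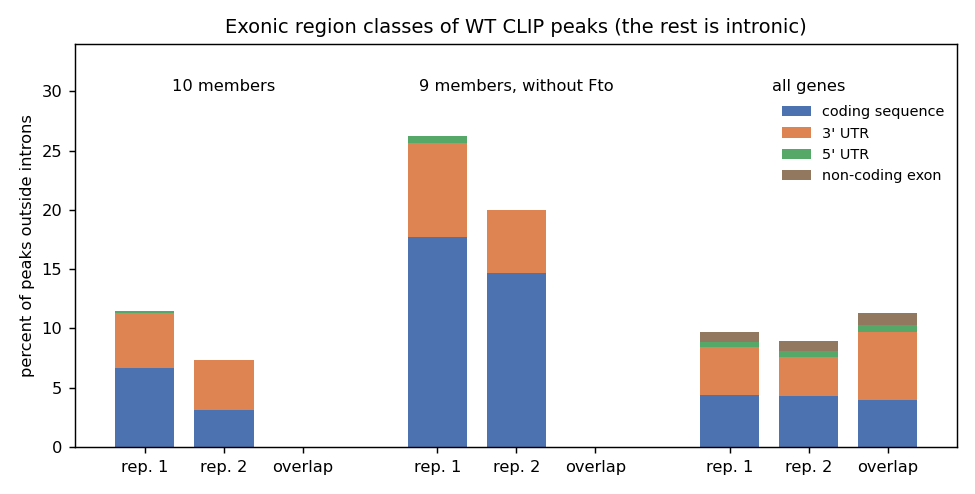
Percent of WT CLIP peaks outside introns (y axis), split by region class, for the 10 genes, for the 9 genes without Fto and for all genes, in replicate 1, replicate 2 and the overlap list. In the 9 genes without Fto the intronic rest is 73.8% and 80.0%, and no overlap-list peak of the 10 genes lies outside introns by the basic annotation.

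GAC was looked for on the strand of the gene in the 30 nt around each peak midpoint that a single exon of an annotated transcript covers. In the 10 genes 20 of 53 windows held it in replicate 1, or 37.7% (25.9% to 51.2%), and 6 of 27 in replicate 2, or 22.2% (10.6% to 40.8%). Over all genes 31.1% and 31.0% of such windows held it, inside both intervals. GGACT, which contains GAC, was in 1 and 0 windows of the 10 genes (2.77% and 2.64% of all windows), and TTTTT in 5 and 4 (6.35% and 5.89% of all windows).

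The remaining counts were chosen after the Rbm15 sequence had been seen and describe how common it is. At least 3 GAC stood in 0.756% of the 46842 windows of replicate 1 and in 0.699% of the 38782 of replicate 2. The run GACTGACTGAC stood in 10 windows of replicate 1, in 10 genes, and in 5 of replicate 2, in 5 genes. Among windows of peaks with a fold of at least 10, 9 of 78 and 7 of 73 held at least 3 GAC, and 4 and 2 held the run. The window of the Rbm15 peak in replicate 1 is among these, while in replicate 2 the wider peak places its midpoint 16 nt away, so that its window holds only 1 GAC.

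Other genes of m6A biology, 18 readers, further methyltransferases and their cofactors, all had peaks in both replicates. Of these, 6 had an overlap-list peak, against 38.7% of all genes with a peak in both replicates. They held 10 such peaks in all. The median density of the 18 genes was 0.354 per kb, against 0.389 over all genes. Ythdc2, a YTH-domain protein with RNA helicase activity, had the most, with 64, 48 and 4 peaks in replicate 1, replicate 2 and the overlap list, and Igf2bp2, an m6A reader, had 107, 45 and 2. Hnrnpa2b1, Igf2bp3, Mettl16 and Trmt112 had 1 each. None of the 18 had a peak with a fold over 6.38 (Mettl16, replicate 1).

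As a check of the labelled cell type, peaks in both replicates were found in 7 of 10 marker genes of neurons and neural progenitors. They were also found in 3 of 4 astrocyte genes, 3 of 4 microglial genes, 3 of 4 oligodendrocyte genes and 2 of 4 endothelial genes. Over all genes with a peak in either replicate, 15995 of 20188 had one in both. Nefl, Nefm and Nes were the neuronal genes without, and Gfap of the astrocyte list had 0 peaks in both. A peak list does not measure expression, so this neither supports nor contradicts the label.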

How the data were processed

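The WT CLIP peak lists were called per library, per the file headers of the peak names, which carry MACS2 and a p threshold of 0.005. MACS2 (2.1.1.20160309), Novoalign (3.09.00), HOMER (4.11.1), deepTools (3.2.1), bedtools (2.25.0) and the mm10 build are named in the submitters' processing notes. Their order, their settings and the control of the peak caller are not stated there. Each deposited peak carries the authors' score (10 times the −log10 p, rounded down), a fold (ratio of pileup over background) and the −log10 p, as deposited by the authors. No source says how the authors gave a strand to each peak, so the gene annotation is a possible origin.

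Repeated lines were removed (654978 and 581790 deposited lines). Peaks were placed by midpoint on GENCODE M21 basic genes of the same strand and classed in the order coding sequence, 3′ UTR, 5′ UTR, non-coding exon, intron. A peak inside several genes counted for each of them. Length deciles were taken over genes with a peak in either replicate. Decile medians of density, and shares of genes with a lower density, used the mean of the replicates. Sequence came from GENCODE M21 transcripts. A count table with 8 library columns whose names match no sample's labels was not used here, so no knockout comparison was made. Input and read coverage did not enter, and shares carry Wilson 95% intervals. These intervals treat peaks of the same gene as independent.

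All 10 genes are named, with each overlap-list peak of genes with at most 5, the 5 with the highest lower −log10 p in longer lists, and the strongest peak per replicate. Of 18 other m6A genes those with most overlap-list peaks are named, a tie included, and of other genes the 5 nearest to Fto in length. The genes, lists and alternatives were chosen with earlier results of these data known, and the lists get no test. The code was tested on simulated data. The tools were scipy 1.17.1, pandas 2.3.3, numpy 2.4.6 and matplotlib 3.10.9 under Python 3.11.15.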

Additional observations from a re-analysis of the deposited data

How the results depend on the processing

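The 5 genes with an overlap-list peak, the median of 0.479 peaks per kb, the 6.52% of replicate 2 peaks shared, the 90.6% in introns (mean of the replicates) and the median fold of 1.90 kept their values when any overlap with the gene placed a peak or strand was ignored. Ignoring strand could not change them. Only Zc3h13 had peaks on the opposite strand, and those are copies that count once. With a −log10 p of at least 6, 1 gene, Rbm15, had an overlap-list peak and the median density was 0 per kb. Only 6 replicate 2 peaks were left, of which 16.7% were shared. At that cut-off 100% of peaks were intronic and the median fold was 4.12. With a fold of at least 5, 1 gene, Rbm15, was left with 1 peak in each replicate, so the density was 0, the shared and intronic shares were 100% and 100%, and the median fold was 14.2. Counting 1 bp of overlap as shared gave 10.2%, and leaving out Fto gave 76.9% in introns. Shares of genes with an overlap-list peak and of shared peaks are not given over all genes at these cut-offs or at 1 bp. The values at those settings thus have no background beside them. Leaving out either replicate gave 0.267 to 0.755 peaks per kb, 88.5% to 92.6% in introns and median folds of 1.90 to 1.91. With repeated lines kept the values were 5 genes, 0.559 peaks per kb, 6.34% shared, 89.8% in introns and a median fold of 1.90. Sharing at 50% of each peak gave 5.95%. Exonic density was 0.552 peaks per kb of exon, and the comprehensive annotation gave 89.8% in introns. The SD of the density between the replicates was 0.345, so small changes of density cannot be told from that spread. Depth is unknown, which limits all comparisons of peak number between replicates. No paired analysis was possible because only WT CLIP peak lists entered, with no second group.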
